A study of Mus musculus with 8 samples.

Results

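Endothelial receptor and angiogenesis genes were followed in epididymal white adipose tissue, a visceral depot, of mice with and without the succinate receptor SUCNR1. The set holds 10 genes chosen by name, namely Pecam1, Cdh5, Kdr, Flt1, Tek, Tie1, Angpt1, Angpt2, Vegfb and Nrp1, and all 10 were measured among the 18820 genes analysed. Tissue came from 4 Sucnr1-/- mice and 4 WT mice, all male on a C57BL/6 background and all fed a semi-synthetic low-fat diet (LFD) for 16 weeks, with an age of 24 to 26 weeks at the end. The knockout mice lacked the receptor in every cell from birth, since a lacZ/neo cassette replaced most of its coding sequence, and the WT mice were littermates from crosses of heterozygous parents. RNA of each mouse was hybridised to 1 Affymetrix whole-transcript array, and the deposited values are log2 expression after robust multi-array average (RMA) processing, so that a difference of 1 is a doubling of signal. The labels name separate replicates, and the number of arrays limits the precision.

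Sucnr1 itself was at 6.02, 6.05, 5.41 and 7.11 in Sucnr1-/- mice, against 8.68, 8.97, 9.38 and 9.78 in WT mice, with no overlap. Adipocyte markers averaged log2 12.01 to 12.30 per mouse, as the label of the tissue implies, and markers of the epididymis 4.62 to 5.07. Over all 18820 genes, none passed limma after Benjamini-Hochberg adjustment at 0.05 in either direction, while 652 were higher and 632 lower in Sucnr1-/- mice at an unadjusted p under 0.05. Centring the arrays on their medians over all probe sets made this 355 and 979, and centring on the median of the genes analysed made it 1352 and 330. Macrophage markers had a lower mean in Sucnr1-/- mice for 20 of 22 genes (median difference −0.32), and immediate early genes, which can rise quickly on handling of tissue, were highest in WT replicate 1 and Sucnr1-/- replicate 1.

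Blood vessels of fat are lined by endothelial cells, which hold together through the adhesion proteins PECAM1 and VE-cadherin (Cdh5) and receive growth signals through a pair of receptor families. Vascular endothelial growth factors (VEGFs) act on KDR, the main signalling receptor, and on FLT1, which binds VEGF-B and limits signalling through KDR, with NRP1 as a co-receptor. Angiopoietin 1, made by cells around the vessel, activates the receptor TEK (also called Tie2) and keeps vessels quiet, whereas angiopoietin 2, made by the endothelium itself, mostly opposes it, and TIE1 is a partner receptor without a well-defined ligand of its own. In adipose tissue the vessel wall also hands fatty acids from blood to adipocytes, and VEGF-B, made by the parenchymal cells, has been linked to this transport in mice. In bulk tissue fewer endothelial cells and less RNA per endothelial cell cannot be told apart.

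Promoter sequence is shown for 4 members, the receptor genes Kdr, Flt1 and Tie1, which are used as markers of endothelium, and Vegfb, a ligand gene whose groups did not overlap. RefSeq promoter entries (build GRCm38.p6) were matched for 6 of the 10 members, Kdr, Flt1, Tek, Tie1, Vegfb and Nrp1. Each line gives the 250 bases before the start of the gene, 5′ to 3′ on the strand of the gene. The stretches lie on the minus strand at chr5:75978456-75978705 for Kdr, chr5:147726012-147726261 for Flt1, chr4:118489850-118490099 for Tie1 and chr19:6987652-6987901 for Vegfb. Capitals mark AGGAAG or its reverse complement CTTCCT, a form of the site bound by ETS factors, a family that includes the endothelial regulators ERG and FLI1. Other forms around the GGAA core of such sites were not searched, and some stand unmarked, as in the Kdr stretch.
Kdr: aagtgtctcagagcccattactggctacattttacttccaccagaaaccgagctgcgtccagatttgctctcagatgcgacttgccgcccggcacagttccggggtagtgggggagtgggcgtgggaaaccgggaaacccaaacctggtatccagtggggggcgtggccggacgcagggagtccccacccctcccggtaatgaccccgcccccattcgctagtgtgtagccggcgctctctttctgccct
Flt1: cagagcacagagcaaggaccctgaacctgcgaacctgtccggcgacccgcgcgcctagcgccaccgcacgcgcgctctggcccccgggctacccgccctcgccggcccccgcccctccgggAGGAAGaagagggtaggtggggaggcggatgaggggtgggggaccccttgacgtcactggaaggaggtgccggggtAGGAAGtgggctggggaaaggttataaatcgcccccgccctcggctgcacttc
Tie1: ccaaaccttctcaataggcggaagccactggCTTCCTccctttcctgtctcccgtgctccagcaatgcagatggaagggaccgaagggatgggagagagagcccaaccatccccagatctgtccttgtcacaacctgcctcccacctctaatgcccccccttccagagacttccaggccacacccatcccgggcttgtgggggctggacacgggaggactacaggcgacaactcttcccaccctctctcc
Vegfb: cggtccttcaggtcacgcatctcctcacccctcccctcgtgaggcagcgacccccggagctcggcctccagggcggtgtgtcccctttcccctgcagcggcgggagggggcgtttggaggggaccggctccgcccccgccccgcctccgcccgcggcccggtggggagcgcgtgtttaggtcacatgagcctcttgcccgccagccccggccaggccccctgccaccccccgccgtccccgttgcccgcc
AGGAAG or CTTCCT stood 2 times in the Flt1 stretch and 1 time each in those of Tie1 and Nrp1. Either was present in 29.5% of all 32851 promoter stretches of this length. The letters CCGCCC or GGGCGG, the GC box bound by SP and KLF factors, stood 4 times in the Vegfb stretch, 3 times for Flt1, 2 times for Kdr and 1 time for Nrp1, against presence in 32.7% of all stretches. No match of one motif overlapped a match of the other in the 6 stretches. On either strand, none of the 6 held AGATAA, the letters of a site for GATA-binding factors that 9.99% of all stretches held. Nor did any hold ACGTG, a form of the hypoxia response element core that 16.6% held. The other form, GCGTG, was not counted. It or its reverse complement stands in the printed stretches of Kdr, Flt1 and Vegfb. Guanine and cytosine made up 76.4% of the Vegfb stretch, 70.4% for Flt1, 61.6% for Kdr and 60.4% for Tie1, with a median of 52.4% over all stretches. These matches describe letters and were not set against binding data.

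As a set the members differed little between genotypes. The mean was higher in Sucnr1-/- mice for 3 members and lower for 7, with a median log2 difference of −0.02, against 0.01 over all genes. None of the 10 passed limma over all genes (0% of all genes were called in either direction), and an unadjusted p under 0.05 was found for 1 with a higher and 0 with a lower mean, beside 3.46% and 3.36% of all genes. The groups did not overlap for 1 member, higher in Sucnr1-/- mice, where 2.37% of all genes were higher and 1.87% lower without overlap. That member was Vegfb.

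**Figure D1:**
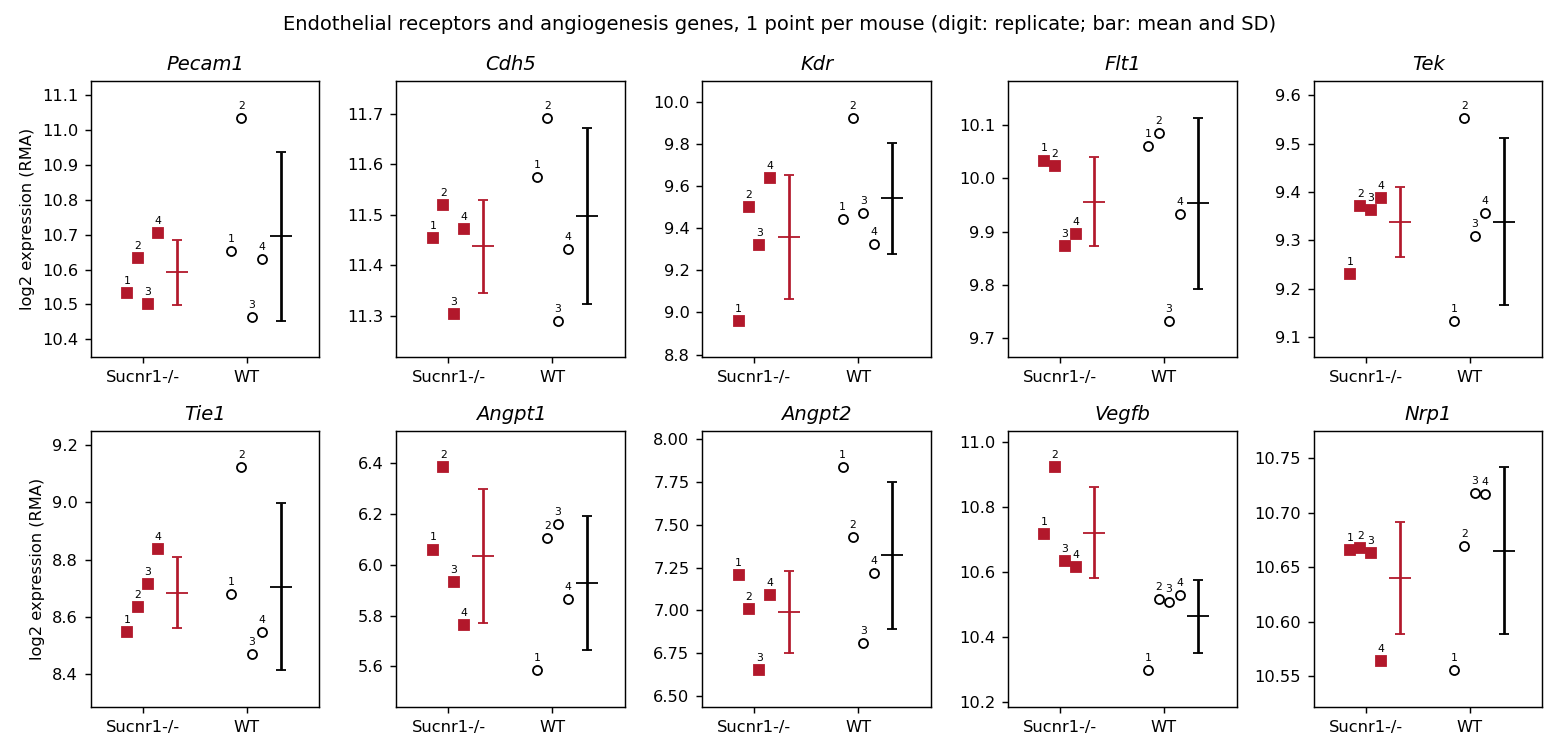
Log2 expression (RMA, vertical axis, own scale per gene) of the 10 members, 1 point per mouse, with Sucnr1-/- as filled red squares and WT as open circles, the digit giving the replicate and the bar the mean and SD. Vegfb is the only member of the 10 whose Sucnr1-/- values all lie above the WT values, and WT replicate 2 is the highest mouse for Pecam1, Cdh5, Kdr, Flt1, Tek and Tie1.

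Vegfb, the ligand of FLT1 and NRP1, was at 10.72, 10.92, 10.63 and 10.61 in Sucnr1-/- mice, against 10.30, 10.52, 10.51 and 10.53 in WT mice. Every Sucnr1-/- mouse lay above every WT mouse, by a gap that was small beside the distance between Sucnr1-/- replicate 2 and the others of its group. The means were 10.72 ± 0.14 in Sucnr1-/- and 10.46 ± 0.11 in WT mice (SD, n = 4 each), a log2 difference of 0.26 (SE 0.09, 95% interval 0.05 to 0.46), which corresponds to a Sucnr1-/- to WT ratio between 1.04 and 1.38. By exact permutation, two-sided, p was 0.0286 without adjustment for the 10 members, which is the lowest value this number of mice can reach, and limma gave an unadjusted p of 0.0186 and an adjusted p of 0.712. WT replicate 1 was the lowest of the 8 mice for Vegfb and also had the lowest adipocyte marker level (−0.22 log2 from the mean of the 8 mice, against −0.02 to 0.07 in the other WT mice and 0.02 to 0.07 in Sucnr1-/- mice). Without it the Vegfb difference was 0.20 (limma, adjusted p = 0.852). Set against the mean of 28 pan-endothelial markers in the same mouse, Vegfb differed by 0.22 and the groups overlapped.

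The other VEGF ligands examined, Vegfc, Vegfd and Pgf, had smaller differences than Vegfb. Vegfa was not among the genes examined. Vegfc and Vegfd, which act mainly on the lymphatic receptor, differed by −0.03 (SE 0.10) and 0.08 (SE 0.17), and Pgf, the placental growth factor that binds FLT1, by 0.05 (SE 0.15), with overlapping groups for all 3. The sign of each turned when single mice were left out (−0.11 to 0.04 for Vegfc, −0.04 to 0.23 for Vegfd and −0.10 to 0.12 for Pgf).

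The VEGF receptors showed small differences. Kdr, the main signalling receptor, was at 8.96, 9.50, 9.32 and 9.64 in Sucnr1-/- mice, against 9.44, 9.93, 9.47 and 9.33 in WT mice. The groups overlapped, with Sucnr1-/- replicate 1 lowest and WT replicate 2 highest of all 8. The difference was −0.18 (SE 0.17, 95% interval −0.57 to 0.21; limma, adjusted p = 0.791; exact permutation p = 0.457). Leaving out either of these mice brought it to −0.05 or −0.06. Flt1, which serves as a decoy as well as a receptor for VEGF-B, was at 10.03, 10.02, 9.87 and 9.90 in Sucnr1-/- mice, against 10.06, 10.09, 9.73 and 9.93 in WT mice. Its difference was 0.00 (SE 0.09), and the 95% interval of −0.20 to 0.21 bounds the Sucnr1-/- to WT ratio between 0.869 and 1.16 on the linear scale. Nrp1, the co-receptor, was at 10.67, 10.67, 10.66 and 10.56 in Sucnr1-/- mice, against 10.56, 10.67, 10.72 and 10.72 in WT mice. It varied least of the 10 members between the 8 mice (SD 0.06) and differed by −0.02 (SE 0.06, 95% interval −0.17 to 0.12), a ratio between 0.891 and 1.08. Nrp2, its relative on lymphatic and venous endothelium, was at 8.97, 8.68, 8.75 and 8.74 in Sucnr1-/- mice, against 9.47, 9.19, 8.65 and 8.87 in WT mice, a difference of −0.26 (SE 0.17; limma, adjusted p = 0.743). For Nrp2 the groups overlapped, and without WT replicate 1 the difference was −0.12.

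Of 22 measured genes that carry the signal of VEGF receptors inside the cell, 5 had a higher and 17 a lower mean in Sucnr1-/- mice (median −0.09). At an unadjusted p under 0.05 stood 0 of the higher and 1 of the lower genes, beside 3.46% and 3.36% of all genes. None passed adjustment. The lower gene was Iqgap1, a scaffold that binds KDR and the cytoskeleton, at −0.24 (SE 0.08; limma, adjusted p = 0.712). Prkcb, a protein kinase C also abundant in leucocytes, differed by −0.31 (SE 0.14) and the kinases Map2k1 and Mapkapk2 by −0.19 (SE 0.09) and −0.14 (SE 0.07). Without WT replicate 1 the Map2k1 difference was −0.11. These genes are not particular to endothelium, and 20 of 22 macrophage markers had lower means in the same mice. The part of macrophages in these values was not tested.

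In the angiopoietin system the antagonist and the agonist had differences of opposite sign, neither past the test. Angpt2 was at 7.21, 7.01, 6.65 and 7.09 in Sucnr1-/- mice, against 7.84, 7.43, 6.81 and 7.22 in WT mice. The highest value was that of WT replicate 1 and the lowest that of Sucnr1-/- replicate 3, and the groups overlapped because WT replicate 3 lay low. The difference was −0.33 (SE 0.21, 95% interval −0.81 to 0.14; limma, adjusted p = 0.743; exact permutation p = 0.229). It was −0.16 without WT replicate 1 and −0.51 without WT replicate 3. Immediate early genes stood at 0.72 above their mean in WT replicate 1 and at 0.45 in Sucnr1-/- replicate 1, the mice with the highest Angpt2 of their genotypes, and between −0.44 and 0.05 in the other mice. Without both of these mice the Angpt2 difference was −0.24. Angpt1 was at 6.06, 6.38, 5.93 and 5.76 in Sucnr1-/- mice, against 5.58, 6.11, 6.16 and 5.86 in WT mice, a difference of 0.11 (SE 0.16; limma, adjusted p = 0.870) that turned to −0.01 without WT replicate 1 or without Sucnr1-/- replicate 2. The groups overlapped widely.

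Their receptors had differences near 0. Tek, the receptor of both angiopoietins, was at 9.23, 9.37, 9.36 and 9.39 in Sucnr1-/- mice, against 9.13, 9.55, 9.31 and 9.36 in WT mice. Tie1, its partner, was at 8.55, 8.64, 8.72 and 8.84 in Sucnr1-/- mice, against 8.68, 9.12, 8.47 and 8.55 in WT mice. In both cases the values of the Sucnr1-/- mice lay inside the range of the WT mice, whose spread was wider. The differences were 0.00 (SE 0.09, 95% interval −0.21 to 0.21) for Tek and −0.02 (SE 0.14, 95% interval −0.34 to 0.30) for Tie1.

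Of 7 further genes of this system 6 had a higher and 1 a lower mean in Sucnr1-/- mice. At an unadjusted p under 0.05 stood 1 higher and 1 lower, beside 3.46% and 3.36% of all genes. Dok2, an adaptor that binds activated TEK and is best known from blood cells, was at 8.06, 7.95, 7.97 and 7.65 in Sucnr1-/- mice, against 8.77, 8.56, 8.22 and 8.12 in WT mice. The groups did not overlap, where 1.87% of all genes were lower without overlap. The difference was −0.51 (SE 0.15, limma adjusted p = 0.712). Dok2 was named for its low p in these mice, so the gap is no independent support. Grb14, an adaptor of TEK that also restrains the insulin receptor, was at 7.73, 8.20, 7.63 and 7.91 in Sucnr1-/- mice, against 7.11, 7.13, 7.44 and 7.70 in WT mice, a difference of 0.52 (SE 0.16; limma, adjusted p = 0.712). For Grb14 only the highest WT mouse reached into the Sucnr1-/- range. Ptprb, the endothelial phosphatase that dampens TEK, differed by 0.20 (SE 0.15), and Foxo1, the transcription factor held out of the nucleus by TEK signalling, by 0.26 (SE 0.20). Without WT replicate 1 these were 0.096 for Ptprb and 0.11 for Foxo1, and without WT replicate 2 Ptprb was 0.33. Macrophage markers had lower means in the same mice as Dok2, and their part was not tested.

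**Figure D2:**
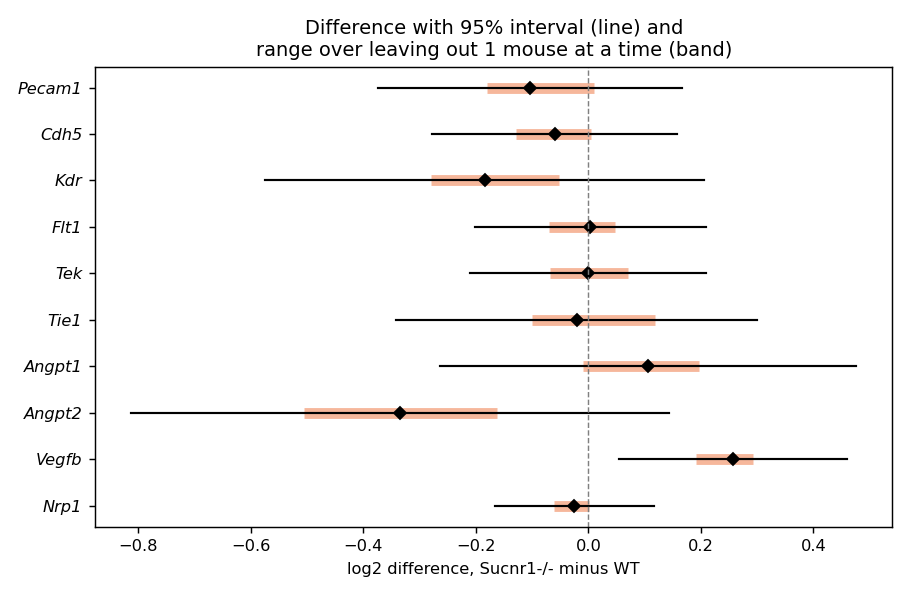
Log2 difference, Sucnr1-/- minus WT (horizontal axis), of each member (rows), with the 95% interval from limma as a line and the range of the difference over leaving out 1 mouse at a time as a band. The interval excludes 0 for Vegfb alone among the 10, before any adjustment.

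The junction genes Pecam1 and Cdh5 had slightly lower means in Sucnr1-/- mice, within the spread of the WT mice. Pecam1 was at 10.53, 10.63, 10.50 and 10.70 in Sucnr1-/- mice, against 10.65, 11.04, 10.46 and 10.63 in WT mice, and Cdh5 was at 11.45, 11.52, 11.30 and 11.47 in Sucnr1-/- mice, against 11.57, 11.69, 11.29 and 11.43 in WT mice. For each gene WT replicate 2 was highest and WT replicate 3 lowest of all 8 mice, and the Sucnr1-/- mice lay between them. The differences were −0.10 (SE 0.12, 95% interval −0.37 to 0.17) for Pecam1 and −0.06 (SE 0.10, 95% interval −0.28 to 0.16) for Cdh5. Without WT replicate 2 they were 0.010 for Pecam1 and 0.0052 for Cdh5.

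One mouse was the highest for 6 members. WT replicate 2 was the highest of the 8 mice for Pecam1, Cdh5, Kdr, Flt1, Tek and Tie1, and for none of Angpt1, Angpt2, Vegfb and Nrp1. The mean deviation of these 6 genes was −0.13, 0.02, −0.08 and 0.07 in Sucnr1-/- mice, against 0.00, 0.31, −0.14 and −0.05 in WT mice. The 28 measured pan-endothelial markers outside the set, such as Cldn5 and Emcn, stood at −0.04, 0.08, −0.08 and 0.11 in Sucnr1-/- mice, against −0.12, 0.30, −0.13 and −0.13 in WT mice. WT replicate 2 was high in genes outside the set as well, and not in vessel lists alone: its lymphatic (0.69) and mural markers (0.34) stood above their means, and so did its platelet and erythroid (0.45), mesothelial (0.36) and epididymis markers (0.31, against −0.14 to 0.07 in the other mice). Mural markers were higher still in Sucnr1-/- replicate 4 (0.42). Mesothelial markers were higher in Sucnr1-/- replicate 3 (0.51) and about as high in WT replicate 3 (0.36). The epididymis markers averaged only 4.62 to 5.07 per mouse. The part of these cells in its values was not tested. Kdr was about as far below its mean in Sucnr1-/- replicate 1 as above it in WT replicate 2, and Flt1 was farthest from its mean in WT replicate 3. Without WT replicate 2 the difference was 0.12 for Tie1 and 0.07 for Tek, both higher in Sucnr1-/- mice, and 0.05 for Flt1.

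**Figure D3:**
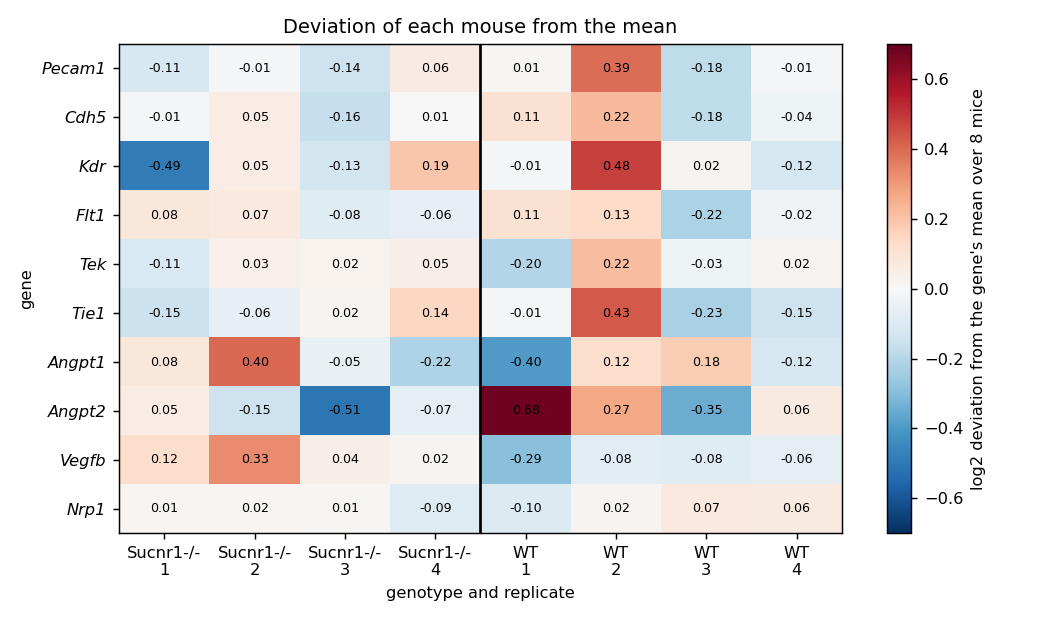
Deviation of each mouse (columns, Sucnr1-/- left and WT right of the line) from the mean of the gene over the 8 mice, for the 10 members (rows), in log2 units by colour and printed value. WT replicate 2 is above the mean for Pecam1 to Tie1, and Vegfb is above its mean in the 4 Sucnr1-/- mice and below it in the 4 WT mice.

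With the mean of each genotype subtracted, Pecam1 and Tie1 followed the mean of the other endothelial members most closely over the 8 mice (Pearson's r 0.97 and 0.92, Spearman's rho 0.90 and 0.88), ahead of Cdh5 (r 0.76), Kdr (r 0.72), Tek (r 0.63) and Flt1 (r 0.46). These values describe 8 arrays that share the RMA processing, and no p is given. Without WT replicate 2 and Sucnr1-/- replicate 4, the mice farthest from the median, r was 0.85 for Pecam1, 0.61 for Tie1, 0.58 for Cdh5, 0.44 for Flt1, 0.23 for Kdr and −0.08 for Tek, so the relation of Kdr and Tek rested on those mice. Against the mean of the 6, Angpt1, Vegfb and Angpt2 had r of 0.09, 0.10 and 0.36, and Nrp1 −0.31. Among 9401 other genes of at least median level, the 5 with the highest r were Shroom4 (0.97), Dus3l (0.96), Fzd6 (0.95), Arap3 (0.95) and Ushbp1 (0.95), where the last is one of the pan-endothelial markers. Without the same 2 mice their r was 0.81 to 0.92. The 5 genes were picked on these same arrays, so that value cannot test the likeness.

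Vessel markers outside the set were divided between higher and lower means. Of 28 pan-endothelial markers 15 had a higher and 13 a lower mean in Sucnr1-/- mice (median 0.02). An unadjusted p under 0.05 was reached by 1 of the higher and 0 of the lower ones, beside 3.46% and 3.36% of all genes. None passed adjustment. Cldn5, the claudin of endothelial tight junctions, was at 10.82, 10.80, 10.73 and 10.71 in Sucnr1-/- mice, against 10.29, 10.75, 10.63 and 10.66 in WT mice, a difference of 0.18 (SE 0.10). Rasip1, which opens the lumen of vessels, differed by 0.27 (SE 0.13) and Ushbp1 by 0.25 (SE 0.16). These are the markers of lowest p after Ramp2, and 13 of the 28 lay the other way. Their sizes depended on single mice, with Cldn5 at 0.086 without WT replicate 1, Rasip1 at 0.17 without WT replicate 3 and Ushbp1 at 0.40 without WT replicate 2. Of 15 mural cell markers, for the pericytes and smooth muscle around vessels, 8 were higher and 7 lower by their means (median 0.02), with the pericyte genes Cspg4 at 0.33 (SE 0.15), Rgs5 at 0.36 (SE 0.18) and Notch3 at 0.20 (SE 0.14), and Pdgfrb, a receptor of pericytes, at −0.16 (SE 0.14). Cspg4 was 0.21 and Pdgfrb −0.071 without WT replicate 1, Rgs5 was 0.20 without Sucnr1-/- replicate 4, and for Notch3 and Pdgfrb WT replicate 3 also mattered (0.098 and −0.28 without it). Without WT replicate 2 Notch3 was 0.33. All 7 lymphatic markers had a lower mean (median −0.31) and 0 of 7 had an unadjusted p under 0.05. Prox1, the regulator of lymphatic identity, was at 5.21, 5.46, 4.93 and 5.78 in Sucnr1-/- mice, against 4.99, 6.10, 5.43 and 6.24 in WT mice, a difference of −0.35 (SE 0.29). Mmrn1 differed by −0.95 (SE 0.69) and Reln by −0.31 (SE 0.32), and the 2 highest mice for each of these 3 genes were WT replicates 2 and 4. Without WT replicate 2 the differences were −0.42 for Mmrn1, −0.096 for Reln and −0.21 for Prox1, without Sucnr1-/- replicate 3 they were −0.48, −0.11 and −0.21, and without WT replicate 4 Reln was −0.17 and Prox1 −0.16. Without WT replicate 1 Reln was −0.50 and Prox1 −0.58, and without WT replicate 3 Reln was −0.49. Pdpn, also made by stromal and mesothelial cells, differed by −0.35 (SE 0.39), by 0.0068 without WT replicate 1 and by −0.63 without WT replicate 3.

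**Figure D4:**
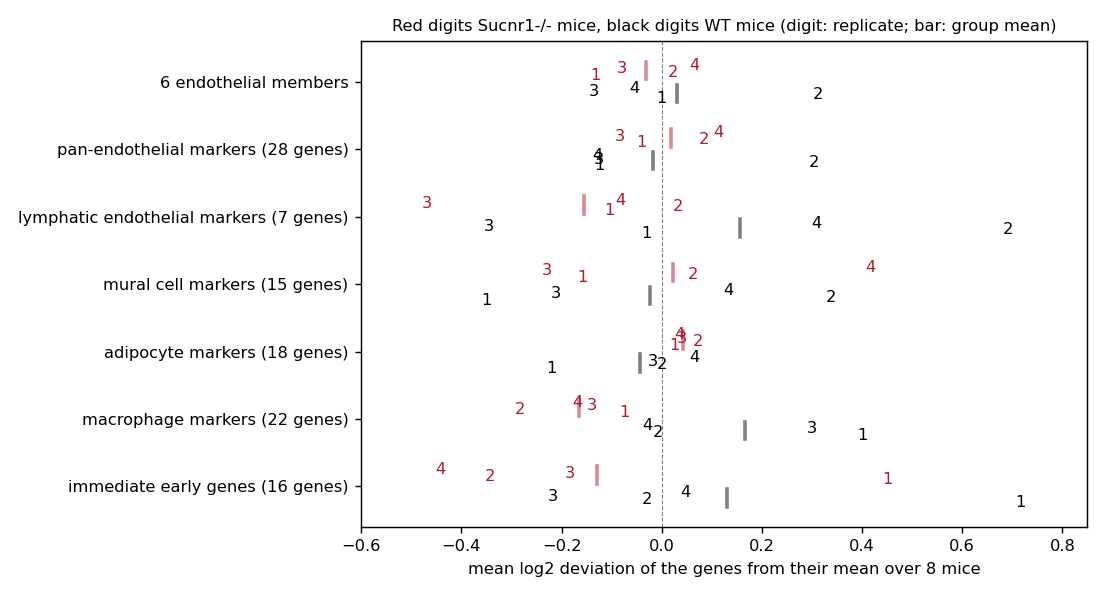
Mean log2 deviation of the genes of a list from their mean over the 8 mice (horizontal axis) for the 6 endothelial members and 6 marker lists (rows), with Sucnr1-/- mice as red digits and WT mice as black digits, the digit being the replicate and the bar the group mean. WT replicate 2 stands apart to the right in both endothelial rows, while the macrophage row has the Sucnr1-/- mice to the left of the WT mice.

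Notch signalling, through which a sprouting cell restrains its neighbours, held the genes of lowest p among the vessel pathways examined. Of 14 measured genes 11 had a higher and 3 a lower mean in Sucnr1-/- mice (median 0.07). At an unadjusted p under 0.05 stood 2 higher and 0 lower, beside 3.46% and 3.36% of all genes, and none passed adjustment. Dll1, a Notch ligand, was at 6.75, 6.80, 6.54 and 6.72 in Sucnr1-/- mice, against 6.34, 6.49, 6.51 and 6.33 in WT mice, a difference of 0.29 (SE 0.08; limma, unadjusted p = 0.00591, adjusted p = 0.712). Jag2, another ligand, was at 7.75, 7.94, 7.75 and 7.76 in Sucnr1-/- mice, against 7.44, 7.62, 7.61 and 7.33 in WT mice, a difference of 0.30 (SE 0.09; limma, unadjusted p = 0.00651, adjusted p = 0.712). Lfng, which modifies Notch, and Rbpj, its nuclear partner, had lower means in Sucnr1-/- mice, at −0.18 (SE 0.11) and −0.15 (SE 0.11), and Rbpj was −0.069 without WT replicate 1. The groups did not overlap for Dll1 and Jag2, where 2.37% of all genes were higher without overlap. The difference stayed between 0.25 and 0.34 for Dll1 and between 0.25 and 0.35 for Jag2 when each mouse was left out in turn. Both genes were named for their low p in these mice, so these ranges are no independent support. Dll1 lay below the level of the median gene (7.08) in every mouse.

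Among 24 other angiogenic growth factors and receptors 10 were higher and 14 lower by their means (median −0.04). An unadjusted p under 0.05 was found for 2 higher and 1 lower, beside 3.46% and 3.36% of all genes. Of these, Calcrl and Ramp2 encode the parts of the adrenomedullin receptor of vessels and had differences of opposite sign. Calcrl was at 8.91, 8.76, 8.67 and 8.52 in Sucnr1-/- mice, against 9.41, 9.40, 8.88 and 8.94 in WT mice, a difference of −0.44 (SE 0.15; limma, adjusted p = 0.712). Ramp2 was at 9.74, 9.86, 9.76 and 10.05 in Sucnr1-/- mice, against 9.27, 9.62, 9.64 and 9.75 in WT mice, a difference of 0.28 (SE 0.12; limma, adjusted p = 0.713). In each case 1 mouse of one genotype crossed into the range of the other. Without WT replicate 1 the Ramp2 difference was 0.18. Met, the receptor of hepatocyte growth factor, differed by 0.30 (SE 0.12), and the growth factor Fgf10 by 0.26 (SE 0.17), or 0.13 without WT replicate 1.

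**Figure D5:**
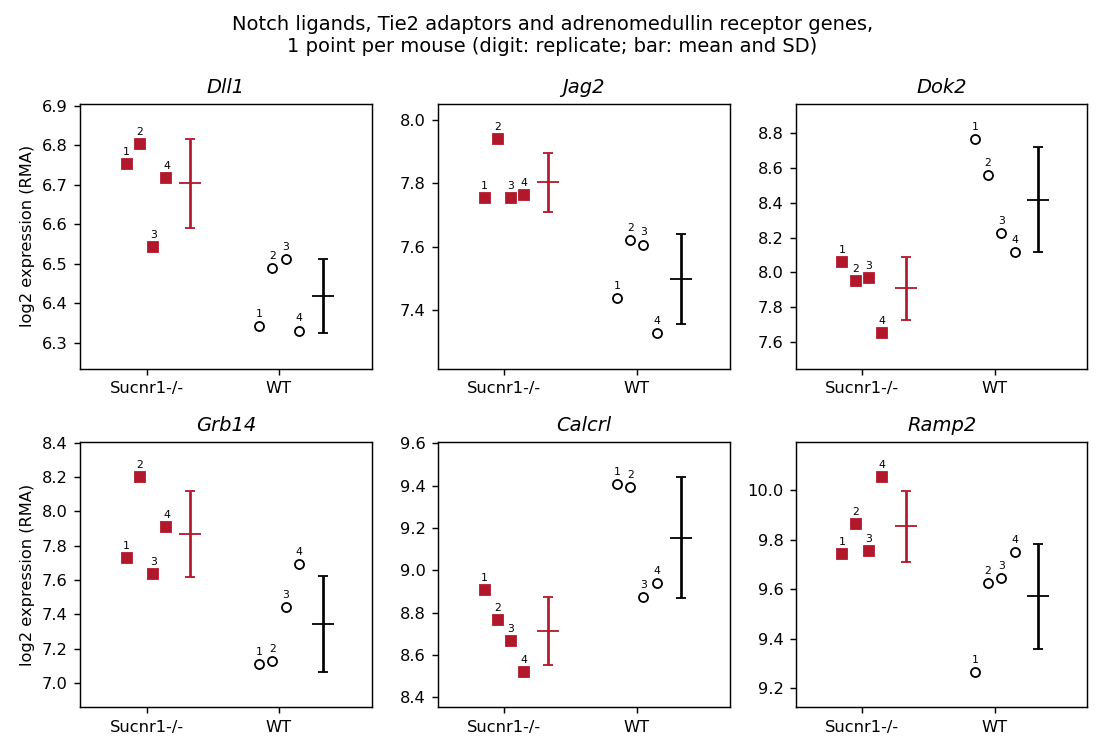
Log2 expression (RMA, vertical axis, own scale per gene) of 6 vessel pathway genes outside the set, 1 point per mouse, with Sucnr1-/- as filled red squares and WT as open circles, the digit giving the replicate and the bar the mean and SD. The groups are apart for Dll1, Jag2 and Dok2 and overlap for Grb14, Calcrl and Ramp2.

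The remaining pathway lists had medians near that of all genes. Of 21 endothelial transcription factors 9 were higher and 12 lower by their means (median −0.02), with Tcf15, a factor of capillary endothelium, at 0.34 (SE 0.11; limma, unadjusted p = 0.0158) and with Ets1 at −0.21 (SE 0.14), Klf4 at −0.17 (SE 0.11) and Lmo2 at −0.16 (SE 0.09). Of 24 inhibitors of angiogenesis and guidance genes 11 were higher and 13 lower (median −0.06), with Plxna2 at 0.19 (SE 0.10), Unc5b at 0.18 (SE 0.09), the venous receptor Ephb4 at 0.15 (SE 0.10) and the matrix protein Thbs2, a brake on vessel growth, at −0.23 (SE 0.13). Of 15 genes of the BMP and TGF-beta pathway of endothelium 8 were higher and 7 lower (median 0.04), with the targets Id2 at −0.35 (SE 0.19) and Id3 at −0.21 (SE 0.12), the ligand Bmp6 at 0.31 (SE 0.19) and its modulator Bmper at 0.26 (SE 0.15). Of 11 genes for fatty acid transport, a process linked to VEGF-B, 8 were higher and 3 lower (median 0.04), with the carrier Fabp4 at 0.09 (SE 0.06) Rgcc at 0.08 (SE 0.07), Slc27a3 at 0.12 (SE 0.10) and the carrier Fabp5 at −0.12 (SE 0.11), and none had an unadjusted p under 0.05. Of 17 genes of the hypoxia-inducible factor pathway, an inducer of angiogenic genes, 6 were higher and 11 lower (median −0.02), with Ndrg1 at 0.31 (SE 0.11), Arnt at 0.16 (SE 0.08), Hif3a at 0.59 (SE 0.39) and the collagen-modifying enzyme P4ha1 at −0.31 (SE 0.17). No gene of these lists passed limma over all genes. Leaving out 1 mouse moved many of these values by over 1.5 times without turning their sign, as in the following examples. Without WT replicate 1 Ets1 was −0.10, Bmp6 0.19, Fabp4 0.053, Fabp5 −0.049 and P4ha1 −0.18, and without Sucnr1-/- replicate 2 Plxna2 was 0.12, Unc5b 0.12, Id3 −0.11, Bmper 0.15 and Ndrg1 0.20. Without Sucnr1-/- replicate 4 Hif3a was 0.29, and without Sucnr1-/- replicate 3 Slc27a3 was 0.037. Markers of other cells in the depot included 8 B cell and 8 T cell genes, all with a lower mean in Sucnr1-/- mice (medians −0.72 and −0.31). By mouse, the B cell genes stood 1.51 above their mean in WT replicate 1 and at −0.40 to 0.50 in the other WT mice. The Sucnr1-/- mice lay at −0.88 to 0.21. The groups overlapped for the B cell and for the T cell list. Of 18 adipocyte genes 15 had a higher and 3 a lower mean (median 0.07). The part of these cells in the values of the vessel genes was not tested.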

How the data were processed

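Per the labels, 1 array was run for each of 4 Sucnr1-/- and 4 WT mice, and the deposited log2 expression values were made by the authors with RMA, a joint background correction, normalization and summary of probes. Its version, the genome build and hybridisation dates are not given in the sources used here, so batches were not analysed here. The median log2 value of an array was 6.28 to 6.36. Of 35556 probe sets, 21218 had exactly 1 gene symbol in the platform annotation, 1881 had several and 12457 were unnamed; 21185 matched RefSeq by Entrez ID. The brightest probe set stood for each of 18820 genes, and each member had 1. Genes were compared with limma 3.58.1 in R 4.3.3 (lmFit, eBayes, 2.66 prior degrees of freedom), with Benjamini-Hochberg adjustment over all genes at 0.05. Members were also compared by exact two-sided permutation over every choice of 4 of the 8 arrays. No gene was left out as dim, and no separate background signal shows whether a dim gene was detected. The p-values set the difference between genotypes against the spread between these arrays.

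The fit was tested on simulated arrays drawn from the observed spread and found 52% of 50 genes changed by 0.5, 82% by 1, 98% by 1.5 and 100% by 2 in log2 units over 18820 genes, with 0.0483% of unchanged genes called. All changed genes were planted together with independent noise, which eases adjustment, so these shares do not carry over to the deposited data. There Sucnr1 itself, at a difference of −3.05, had an adjusted p of 0.321 in limma. Members, lists and tests were chosen with earlier results of these data known. Genes were named by rule: the members, up to 4 genes of smallest p per pathway and vessel marker list, the 5 most like the endothelial members, and Sucnr1. Emcn is given as an example of a marker without its value. List counts leave out the members, and 3 older symbols were updated through RefSeq. Some listed genes are not analysed here. Other settings tried were median centring or quantile normalization of the arrays, array weights, a prior that follows intensity, the methods' t-test, the replicate block, averaging of probe sets, a filter that drops the 40% of genes with the lowest mean, values relative to pan-endothelial markers, and each array left out in turn. Centring on the genes analysed and leaving out WT replicate 1 with Sucnr1-/- replicate 1 were chosen after seeing the data. Python 3.11.15 with matplotlib 3.10.9 made the plots.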

Additional observations from a re-analysis of the deposited data

Results flagged for a closer look

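In 9 of 132 groups of 4 mice, covering the 10 members and 56 other named genes, 1 mouse stood apart from the others by Dixon's ratio of its gap to the range of the group (95% critical value). Chance alone flags about 1 in 20 groups. Among the members, Tek in Sucnr1-/- replicate 1 was at 9.23, against 9.36 to 9.39 in the other Sucnr1-/- mice (ratio 0.841). Vegfb in WT replicate 1 was at 10.30, against 10.51 to 10.53 in the other WT mice (ratio 0.909), and Nrp1 in Sucnr1-/- replicate 4 was at 10.56, against 10.66 to 10.67 (ratio 0.960). Among the other genes, Jag2 in Sucnr1-/- replicate 2 was at 7.94, against 7.75 to 7.76 (ratio 0.945). WT replicate 1 stood apart for Vegfd at 8.69, against 9.11 to 9.16 (ratio 0.893), and for Id2 at 11.10, against 10.68 to 10.74 (ratio 0.843). It did so for Rbpj too, at 10.02, against 9.69 to 9.72 (ratio 0.886). Lfng in WT replicate 4 was at 9.39, against 9.70 to 9.73 (ratio 0.894), and Rgcc in WT replicate 2 was at 10.52, against 10.67 in each of the others (ratio 0.970).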

How the results depend on the processing

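No gene was called in any alternative that was run, and the lowest adjusted p of a member was 0.430. Of 189 alternative values of the 10 members 22 turned the sign of the difference, and 167 were labelled the same. Values relative to pan-endothelial markers were labelled by their distance from the main value and not by sign. In that setting Flt1, labelled the same, turned from 0.0033 to −0.033. Vegfb stayed between 0.19 and 0.30, with adjusted p from 0.446 to 0.926 over 18 alternatives, and relative to pan-endothelial markers it was 0.22. Angpt2 stayed between −0.51 and −0.16 and Kdr between −0.28 and −0.05. Near 0 the sign depended on scaling. Median centring gave −0.027 for Flt1, quantile normalization gave 0.027 for Tek and 0.0035 for Tie1, and centring on the genes analysed gave 0.040 for Tek, 0.020 for Tie1, 0.016 for Nrp1, 0.013 for Vegfc and 0.0094 for Fzd6. Without WT replicate 1 and Sucnr1-/- replicate 1 together, Tie1 was 0.017, Angpt1 −0.017, Nrp1 −0.070 and Vegfc 0.060. Leaving out 1 mouse at a time gave −0.18 to 0.010 for Pecam1, −0.13 to 0.0052 for Cdh5, −0.070 to 0.048 for Flt1, −0.069 to 0.071 for Tek, −0.10 to 0.12 for Tie1, −0.0099 to 0.20 for Angpt1, −0.061 to 0.00049 for Nrp1, −0.11 to 0.042 for Vegfc, −0.036 to 0.23 for Vegfd, −0.10 to 0.12 for Pgf, −0.63 to 0.0068 for Pdpn and −0.085 to 0.076 for Fzd6. Genes at an unadjusted p under 0.05 numbered 369 higher and 535 lower without the 40% of genes of lowest mean, where fewer genes were tested, and 440 higher and 368 lower without Sucnr1-/- replicate 2. The replicate numbers were not taken as pairs, since no label ties a number to a shared litter or day and the correlation of same-numbered arrays over all genes was 0.45, 0.14, 0.11 and 0.01. Sucnr1-/- replicates 1 and 3 correlated best with the WT array of their own number, and Sucnr1-/- replicates 2 and 4 with WT replicate 3. The data therefore do not settle it. With the replicate block 809 genes were higher and 1096 lower at an unadjusted p under 0.05, and in limma Angpt2 was at −0.33 with an unadjusted p of 0.0166 and an adjusted p of 0.430, so that 1 member was lower at that threshold instead of 0. Vegfb was at 0.26 with 0.0243 and 0.446. The cause of these shifts was not tested.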
